A study of Mus musculus with 4 samples.

Results

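The cells described here were the 70 cells of the cultured mouse urogenital sinus (UGS) that held collagen transcripts typical of mesenchyme. They were chosen by measured values: *Col1a1* and *Col3a1*, which encode chains of the fibrillar collagens of types I and III, together reached at least 20 UMIs (unique molecular identifiers, each standing for 1 captured transcript) per 10,000 UMIs of the cell, and *Pax2*, a marker of mesonephric duct epithelium, stayed under 2 per 10,000. They were drawn from 6614 explant cells that had more than 1000 detected genes and under 7.5% mitochondrial UMIs, among 7474 explant cells in the deposited table and 19148 cells in the series. The chosen cells, called members here and in the plots, were 1.06% of the 6614 (exact 95% binomial interval 0.826% to 1.34%). All intervals given for shares and levels cover counting error only.

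The explants were UGS from E15.5 embryos of ICR (CD-1) mice, grown on filters in a medium with insulin, transferrin, selenite and 10 μM dihydrotestosterone, the potent androgen, which no culture lacked. Tissue was taken on day 0 (uncultured, E15.5) and on days 1, 3 and 6 of culture, the middle regions were dissected and pooled by day, live EPCAM+ cells were sorted, and the cells of all days were sequenced as 1 droplet library after tagging with MULTI-seq lipid oligos. EPCAM is an epithelial surface protein, so the sort was against the cells described here, and their share describes what remained after it. Each day was 1 pool with no replicate, so no difference between days was tested. The series also held 3 runs of adult prostate from ICR (CD-1) P2-*Runx1*:RFP reporter mice over 8 weeks old, sorted as EPCAM+ RFP+ and RFP- cells of each lobe: runs 1 and 2 joined intact mice and mice castrated over 4 weeks before, and run 3 held intact mice.

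The mesenchyme of the UGS surrounds the epithelial buds that become prostatic ducts. It responds to androgen and to Hedgehog protein released by the epithelium, and returns secreted factors of the FGF, BMP, WNT and IGF families that direct budding and branching. Part of it differentiates into smooth muscle around the ducts.

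The day of a cell was read from the oligo it carried, and the 4 oligos are shown because every comparison between days rests on telling them apart. Each is 59 bases long, and the capitals mark the 8-base sample index at positions 22 to 29, counted from the 5′ end.
Bar1, day 0: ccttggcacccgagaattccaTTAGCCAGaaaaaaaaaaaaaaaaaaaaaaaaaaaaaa
Bar2, day 1: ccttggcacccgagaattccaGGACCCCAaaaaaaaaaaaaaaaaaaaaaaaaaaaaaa
Bar3, day 3: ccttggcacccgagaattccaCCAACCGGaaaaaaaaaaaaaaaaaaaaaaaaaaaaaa
Bar4, day 6: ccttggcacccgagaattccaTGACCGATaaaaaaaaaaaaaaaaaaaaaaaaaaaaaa
The oligos differ only within the index, and the shared run before it and the poly(A) tail after it are the same in all 4. A cell was given a day where its largest oligo count, divided by that oligo's median, was at least 3 and at least 2 times the next largest.

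The members were compared with an epithelial reference from the same library: 6364 cells with an *Epcam* UMI, collagen under 5 per 10,000 and *Pax2* under 2, of which 5850 had no collagen UMI at all. The members held fewer UMIs per cell, from 2038 to 13741 with a median of 7471.5, than the reference with a median of 15063.5. The median number of detected genes was 2658.5 in members and 3662.5 in the reference, and the median mitochondrial share was 2.24% and 2.88%. The explant table held 121090404 UMIs in all, and 532920 of them were in members. No doublet caller was run. A few cell barcodes occurred in more than 1 library, at most 6 for any pair, and none of them was a member's.

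Members made up a larger share of the sorted cells on day 1 than on the other days. On day 0 they were 11 of 899 cells (1.22%, interval 0.612% to 2.18%), on day 1 they were 31 of 992 (3.13%, 2.13% to 4.41%), on day 3 they were 11 of 1096 (1.00%, 0.502% to 1.79%) and on day 6 they were 10 of 2384 (0.419%, 0.201% to 0.770%). The interval of day 1 did not overlap those of days 3 and 6, and it overlapped that of day 0 narrowly. A further 7 members were among the 1243 cells without a day. The share depends on the sort, and fewer mesenchymal cells in the tissue cannot be told apart from a sort that passed fewer of them.

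**Figure D1:**
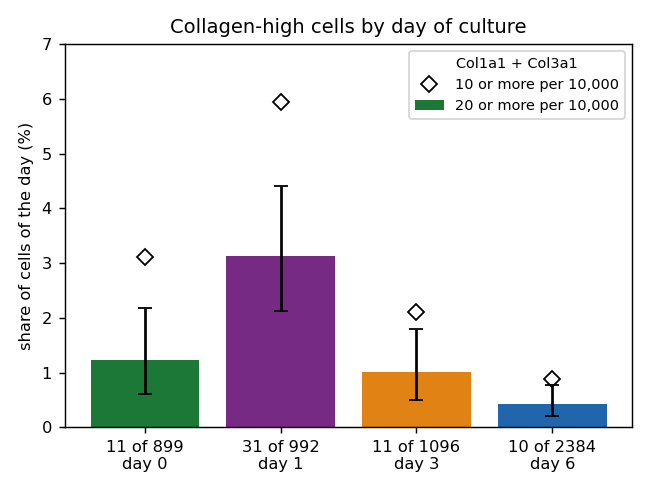
Share of the sorted explant cells of each day (percent, vertical axis) in which *Col1a1* and *Col3a1* reached 20 UMIs per 10,000 (bars, with exact 95% binomial intervals), and the share at the lower threshold of 10 (open diamonds). Day 1 is highest at both thresholds, with 3.13% and 5.95%, and day 6 is lowest, with 0.419% and 0.881%.

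Collagen levels ran on across the threshold. *Col1a1* (GRCm38 chromosome 11, 94936224 to 94953042, plus strand) and *Col3a1* (chromosome 1, 45311538 to 45349706, plus strand) together ranged from 20.5 to 93.9 UMIs per 10,000 in members, with a median of 31.1. The members closest to the threshold held 20.5, 20.7 and 20.9 per 10,000, and the nearest cells outside it held 19.8, 19.8 and 19.8. The *Pax2* limit removed 0 cells. The 69 cells with 10 to 20 collagen UMIs per 10,000 held mesenchyme markers about as often as members did, with *Col1a2* in 98.6% of them, *Vim* in 97.1% and *Pdgfra* in 53.6%. They differed in epithelial transcripts: *Epcam* had 154 UMIs in 13 of them (18.8%), or 2.48 per 10,000 against 0.225 in members, with up to 28 in a cell and at least 10 in 9 cells, where no member held more than 2. *Cdh1* was seen in 6 of them (8.70%) and in 0 members. The other 56 had no *Epcam* and no *Cdh1* UMI. Between 5 and 10 per 10,000 there were 23 cells, and *Epcam* was seen in 65.2% of these. Results that change when cells at 10 to 20 are added are given for both thresholds, and again without cells holding *Epcam* where that matters.

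**Figure D2:**
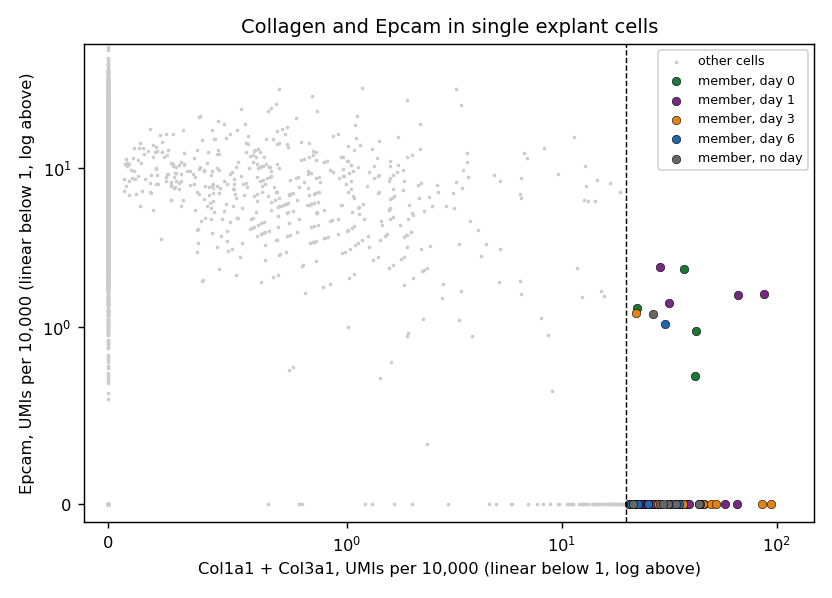
Each explant cell by its *Col1a1* plus *Col3a1* level (horizontal axis) and its *Epcam* level (vertical axis), both in UMIs per 10,000 of the cell, linear below 1 and logarithmic above. Grey points are cells outside the rule, coloured points are members by day, and the dashed line is the threshold of 20. Members lie at or near 0 *Epcam* UMIs, and cells with *Epcam* lie mostly at 0 collagen UMIs.

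The mesenchymal label held against genes that the rule did not name, though every gene here comes from the cells that the rule selected, so these are descriptions. *Col1a2*, which encodes the partner chain of type I collagen, was seen in 100% of members and 0.911% of the reference. *Vim*, the intermediate filament of mesenchymal cells, was seen in 94.3% (86.0% to 98.4%) and 24.2%. *Pdgfra* (chromosome 5, 75152292 to 75198215, plus strand), a growth factor receptor of fibroblasts, was seen in 58.6% (46.2% to 70.2%) and 0.691%. The transcription factor *Zeb1* was seen in 44.3% (32.4% to 56.7%) and 0.361%, and *Twist1* in 42.9% and 1.29%. These shares ran against depth, since members held fewer UMIs than the reference. After thinning every cell to 2000 UMIs, *Vim* was seen in 72.9% of members and 4.43% of the reference. All 70 members held at least 3 of the 12 mesenchyme markers, and 349 of the 6364 reference cells did (5.48%). That list includes *Col1a1* and *Col3a1*, which chose the members and were limited in the reference, so part of this gap was fixed by the choice.

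Most markers of other cell types were low or at 0 in members, with exceptions named below. The reference was chosen for an *Epcam* UMI, so a gap in that gene between the groups was fixed by the choice. *Epcam* (chromosome 17, 87635979 to 87651129, plus strand) was seen in 11 members (15.7%, 8.11% to 26.4%) with 12 UMIs in all, so that 1 member held 2 and the rest 1, while the median reference cell held 14. Its level was 0.225 per 10,000 in members and 10.1 in the reference, 2.22% of the reference level. *Krt15*, a keratin of basal epithelium, was seen in 37.1% of members, at 1.59% of its reference level. *Cdh1*, *Krt7*, *Upk3a*, *Cdh5*, *Ptprc* and *Sox10*, which mark epithelial, urothelial, endothelial, blood and neural crest cells, had 0 UMIs in members, and so did every gene of the hematopoietic and skeletal muscle lists. At least 3 of the 12 prostatic epithelium markers were seen in 9 of 70 members, at least 3 of 6 pericyte markers in 1, and at least 3 markers of mesonephric duct, urothelium, endothelium, nervous tissue or mesothelium in 0. The endothelial receptor gene *Kdr* was nonetheless seen in 22.9% of members against 0.110% of the reference, the pericyte channel gene *Kcnj8* in 18.6%, and *Emcn* in 8.57%. Of the pericyte list, *Notch3* (22.9% against 12.2%), *Cspg4* (14.3% against 7.95%) and *Abcc9* (10.0% against 0.0157%) were also seen more often in members. Of the mesothelium list, *Wt1* was (14.3% against 0.141%). The urothelial gene *Foxq1* was seen in 17.1%, at 34.7% of its reference level. On these lists *Rgs5* was lower (2.86% against 11.5%), and *Higd1b*, *Upk3b*, *Msln* and *Lrrn4* had 0 UMIs in members.

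**Figure D3:**
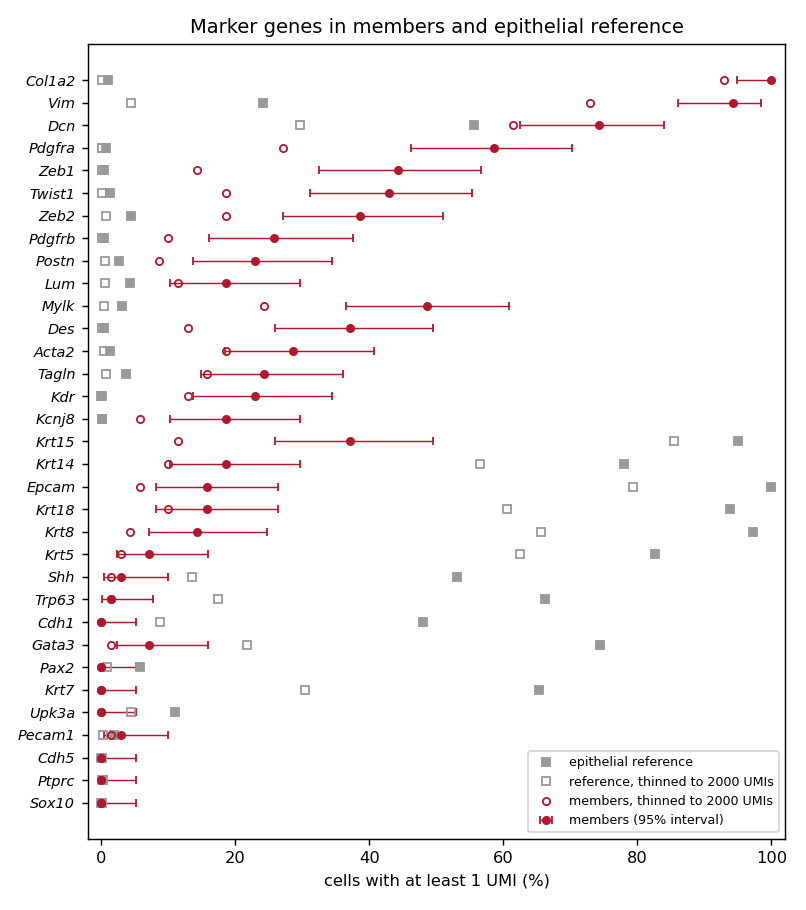
Share of cells with at least 1 UMI (percent, horizontal axis) for each marker, in members (filled red, with 95% binomial intervals) and in the epithelial reference (filled grey squares), and in both after thinning to 2000 UMIs per cell (open symbols). Mesenchyme markers such as *Vim* and *Pdgfra* lie far higher in members, and the keratins lie far higher in the reference, as does *Epcam*, by which the reference was chosen.

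Part of what members share with the reference moved with the day. The summed level of the prostatic epithelium list in members was 2.83, 2.32, 1.61 and 1.43 per 10,000 on days 0, 1, 3 and 6, against 108 in the reference, and its part in the values of single genes was not tested. The most abundant transcripts of members were partly general ones: *Malat1*, a nuclear long non-coding RNA, stood at 409 per 10,000 against 247 in the reference, and the immediate early genes *Fos* at 47.7 against 19.9 and *Jun* at 38.6 against 19.1.

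Against the reference of the same day, 332 of 10479 genes compared (3.17%) were at least 2-fold higher in members on all 4 days and 70 (0.668%) were at least 2-fold lower. The rule chose cells of this library, so nothing is read from these shares. Among structural genes, 10 of 18 collagen and collagen-processing genes compared were higher on all 4 days, among them *Col5a1*, *Col5a2*, *Col6a1*, the collagen chaperone gene *Serpinh1* and *Sparc*, and so were 6 of 16 matricellular genes, among them the fibrillin genes *Fbn1* and *Fbn2*. Of the secreted growth factors, 5 of 16 compared were higher on all days: *Ptn*, *Bmp4*, *Wnt5a*, *Tgfb2* and *Cxcl12*. Genes were compared only where members and reference together reached 50 UMIs on each day. *Rspo3*, *Igf1* and the transcription factor gene *Tcf21* fell under that minimum, so their ratios given below are outside these counts. *Pdgfa*, the ligand of PDGFRA, was lower on all days, at 0.39 per 10,000 in members and 3.45 in the reference. Of the secreted antagonists 3 of 10 were higher (*Sfrp2*, *Fstl1*, *Igfbp2*), of 9 *Hox* genes 0 were, and of 24 genes of the S and G2/M phases 0 were.

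*Ptn* (chromosome 6, 36714929 to 36810220, minus strand), which encodes the heparin-binding growth factor pleiotrophin, was the most abundant ligand of the members. It had 191, 459, 204 and 224 UMIs on days 0, 1, 3 and 6, or 18.6, 20.9, 23.5 and 26.7 per 10,000, and no step between days reached 2-fold. Its log2 ratio to the reference was 2.89 to 3.17 on every day. Its relative *Mdk* (midkine) had 148, 333, 123 and 86 UMIs, with log2 ratios to the reference of 0.89 to 1.72.

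*Rspo3* (chromosome 10, 29452416 to 29535867, minus strand), a secreted amplifier of WNT signals, was close to 0 in the reference. It had 235 UMIs in 52 of the 70 members, or 4.41 per 10,000, against 0.009 in the reference, and the log2 ratio was between 6.94 and 11.22 over the days. By day it had 25, 120, 32 and 25 UMIs, and the log2 ratio of day 1 to day 0 was 1.14, which was 0.97 without its top cell (the cell with most UMIs of the gene) and 1.62 with a collagen threshold of 10. *Sfrp2*, a secreted WNT antagonist, had 41, 191, 52 and 38 UMIs, with a ratio of 1.10 over the same step that was 0.76 without members holding *Epcam*. *Wnt5a* had 5, 16, 11 and 8 UMIs, too few to compare. *Bmp4* had 28 and 43 UMIs on days 0 and 1 and 6 and 5 on days 3 and 6, *Tgfb2* had 19, 49, 15 and 5, and *Cxcl12*, a chemokine gene, had 32, 129, 39 and 36.

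Receptor, co-receptor and transducer genes of the Hedgehog pathway stood higher in members than in the epithelial reference, and pathway activity was not tested. *Ptch1*, which encodes the receptor and is itself a target of the pathway, had log2 ratios to the reference of 1.57 to 2.95, the transducer gene *Smo* 1.48 to 1.75 and the co-receptor gene *Gas1* 5.98 to 6.97. Together with *Boc* they were 4 of 6 list genes that were higher on all 4 days. Within members, *Ptch1* had 10, 23, 10 and 17 UMIs and *Smo* 18, 29, 13 and 13. *Gas1* had 40, 82, 15 and 37 UMIs, with log2 ratios of -1.07 from day 1 to day 3 and 1.32 from day 3 to day 6, which were -0.10 and 0.47 with a collagen threshold of 10. Transcription factor genes of mesenchyme included *Tcf21*, with log2 ratios to the reference of 7.06 to 10.36, *Nr2f1* with 3.85 to 5.42 and *Isl1* with 1.67 to 4.30. The retinoic acid synthesis gene *Aldh1a2* had ratios of 4.64 to 5.57.

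Between days, genes were compared where the UMIs summed over the members of both days reached 50, and a gene was said to rise or fall past 2-fold. From day 0 to day 1, 45 of 1026 genes rose (4.39%) and 31 fell (3.02%), 7.41% in all. From day 1 to day 3, 22 of 925 rose (2.38%) and 42 fell (4.54%), 6.92% in all. From day 3 to day 6, 25 of 466 rose (5.36%) and 12 fell (2.58%), 7.94% in all, and over the whole course, from day 0 to day 6, 48 of 537 rose (8.94%) and 25 fell (4.66%), 13.6% in all. The median log2 ratio over all genes compared was -0.04, -0.04, -0.04 and -0.07 in turn. Days 0, 3 and 6 had 11, 11 and 10 members, so that single cells carried much of some sums. The values with the lower threshold take all 139 cells of at least 10 collagen UMIs per 10,000, some of which hold *Epcam*, and of the 45 genes that rose and 31 that fell from day 0 to day 1, 17 and 6 did so there too. Over the whole course 23 of the 48 and 6 of the 25 did.

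Smooth muscle genes differed widely between the members of early and late days, and were uneven among cells. *Acta2* (chromosome 19, 34241090 to 34255590, minus strand), smooth muscle actin, had 2, 34, 166 and 322 UMIs on days 0, 1, 3 and 6, or 0.195 (0.0236 to 0.705), 1.55 (1.07 to 2.16), 19.1 (16.3 to 22.3) and 38.4 (34.3 to 42.8) per 10,000. The UMIs sat in 2, 5, 3 and 9 cells. On day 3 the counts of the cells were 137, 26 and 3, with 8 cells at 0, so that 1 cell held 82.5% of the sum, and that cell had no *Pdgfra* or *Dcn* UMI. On day 6 the counts were 134, 95, 52, 29, 5, 3, 2, 1, 1 and 0. The days overlapped: cells at or near 0 were present on each, and the cell medians were 0, 0, 0 and 4 UMIs. *Acta2* rose from day 1 to day 3 by 3.61 on the log2 scale (3.09 to 4.21), or by 1.25 without the top cell, and the ratio of day 6 to day 0, whose day 0 sum was only 2 UMIs, was 7.30 (5.75 to 10.67).

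The cells just under the collagen threshold did not share this course. At 10 to 20 collagen UMIs per 10,000, *Acta2* had 311, 116, 78 and 155 UMIs on days 0, 1, 3 and 6, in 6, 2, 6 and 5 cells. Cells with *Acta2* above 20 per 10,000 numbered 0, 1, 2 and 4 among members and 3, 1, 3 and 2 among the cells at 10 to 20, and the highest day 0 cell there stood at 101 per 10,000. With the lower threshold, *Acta2* was at 10.8, 3.53, 14.1 and 23.8 per 10,000, and its log2 ratio of day 6 to day 0 dropped to 1.14, or 0.97 with cells holding *Epcam* left out. The 3 day 0 cells at 10 to 20 with *Acta2* above 20 per 10,000 had no *Epcam* UMI. Day 0 explant cells with much *Acta2* were therefore present in the library but lay under the collagen threshold.

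Other contractile genes were uneven in the same way. *Tagln* (chromosome 9, 45929619 to 45936058, minus strand), the actin-binding protein transgelin, had 4, 4, 73 and 164 UMIs in 3, 1, 3 and 10 cells, with log2 ratios of 5.37 (4.11 to 7.45) from day 1 to day 3, 1.21 (0.81 to 1.63) from day 3 to day 6 and 5.48 (4.26 to 7.54) from day 0 to day 6, and with the lower threshold these were 2.39, 0.97 and 1.08. Without the top cell the step from day 1 to day 3 was 3.35 and that from day 3 to day 6 was 0.76, and with the lower threshold and no cells holding *Epcam* the ratio of day 6 to day 0 was 0.90. The myosin light chain gene *Myl9* had 37, 39, 95 and 154 UMIs (2.33 from day 0 to day 6, 0.55 with the lower threshold), the tropomyosin gene *Tpm2* had 19, 34, 62 and 76 (2.26, and 0.63) and the myosin kinase gene *Mylk* had 6, 30, 38 and 48 (3.19, and 0.75). *Myh11*, smooth muscle myosin, had 0, 13, 28 and 22 UMIs, at least 8.95-fold higher on day 6 than on day 0, and calponin *Cnn1* had 0, 5, 16 and 16, at least 6.51-fold higher. With the lower threshold both stood lower on day 6 than on day 0, *Myh11* at 1.80 against 1.94 per 10,000 and *Cnn1* at 1.65 against 2.87. From day 1 to day 3, 6 of 7 contractile genes compared rose (median log2 ratio 2.20, though without its top cell *Tpm2* stood at 0.98 and *Mylk* at -0.37), and from day 0 to day 6, 5 of 7 rose (median 2.33, 0.46 with the lower threshold, and 0.36 with cells holding *Epcam* left out too), where the summed level of the list in the reference had a log2 ratio of -0.09. The summed level of the 9 smooth muscle markers in members was 1.66, 5.41, 42.7 and 74.1 per 10,000 on the 4 days. At least 3 of *Acta2*, *Tagln*, *Myh11*, *Actg2* and *Cnn1* were seen in 1, 3, 2 and 4 members, and in 4, 1, 3 and 2 of the cells at 10 to 20. More smooth muscle cells among the members and more of these transcripts per cell cannot be told apart in the sums. On day 3, *Acta2* and *Tagln* were each seen in 3 of 11 members, but *Myl9* in 10, *Tpm2* in 7 and *Tpm1* in 11. On day 6, *Acta2* was seen in 9 of 10 members and *Tagln* in 10.

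**Figure D4:**
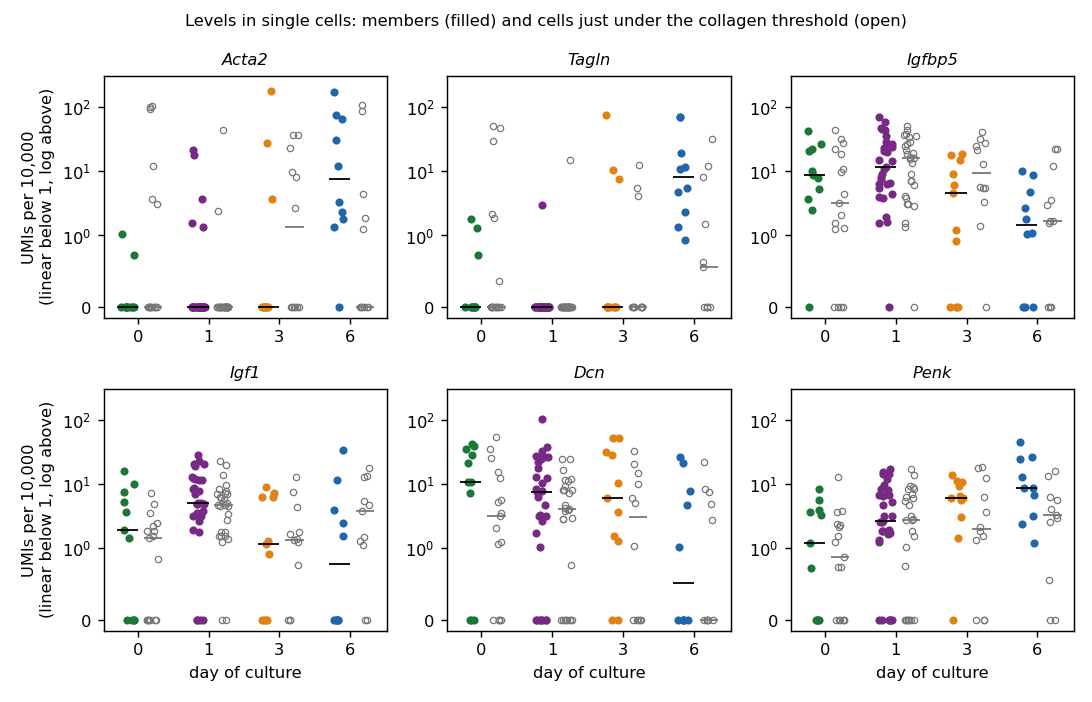
UMIs per 10,000 of *Acta2*, *Tagln*, *Igfbp5*, *Igf1*, *Dcn* and *Penk* (vertical axes, linear below 1 and logarithmic above) in single cells of days 0, 1, 3 and 6: members as filled points, cells with 10 to 20 collagen UMIs per 10,000 as open grey points, and medians as horizontal lines. *Acta2* and *Tagln* are at or near 0 in most members of days 0 to 3 and high in a few, cells at 10 to 20 with high *Acta2* occur on day 0, and *Igfbp5* spreads up to higher levels on days 0 and 1 than on day 6.

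*Penk* and *Mgp* rose in members over the course. *Penk* (chromosome 4, 4133531 to 4138819, minus strand), the precursor of the enkephalin peptides, had 23, 102, 60 and 110 UMIs, or 2.25, 4.64, 6.91 and 13.1 per 10,000. It was seen in 7 of 11, 25 of 31, 10 of 11 and 10 of 10 cells, with cell medians of 1, 2, 5 and 7 UMIs and highest cells of 8, 12, 13 and 39, so the days overlapped while the medians went up. The log2 ratio of day 6 to day 0 was 2.52 (1.89 to 3.26), and the reference had -0.18 over the same days. It was between 1.94 and 2.52 in the 10 other settings where *Penk* could be compared, which left out the collagen threshold of 40. *Mgp* (chromosome 6, 136872435 to 136875823, minus strand), the matrix Gla protein that restrains calcification, had 15, 131, 54 and 75 UMIs, or 1.46, 5.95, 6.22 and 8.94 per 10,000. It rose from day 0 to day 1 (1.98), and from day 0 to day 6 its log2 ratio was 2.57, and 1.77 without the top cell.

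The IGF group did not move as 1. *Igfbp5* (chromosome 1, 72857932 to 72874884, minus strand), which encodes an IGF-binding protein, had 127, 368, 56 and 22 UMIs, or 12.4 (10.3 to 14.8), 16.7 (15.1 to 18.5), 6.45 (4.87 to 8.38) and 2.62 (1.64 to 3.97) per 10,000. The cell medians were 6, 8, 3 and 1 UMIs, the highest cells held 29, 44, 17 and 8, and each day had a cell at 0. *Igfbp5* fell from day 1 to day 3 (log2 ratio -1.36) and from day 3 to day 6 (-1.28), and its ratio of day 6 to day 0 was -2.21 (-2.97 to -1.58). With the lower threshold these were -0.48, -0.96 and -1.01, and with cells holding *Epcam* left out as well -0.69, -1.04 and -0.82. The reference stood at 6.00, 5.01, 5.10 and 8.22 per 10,000 and did not fall. *Igfbp4* had 62, 78, 56 and 14 UMIs, with ratios of -1.91 from day 3 to day 6 and -1.82 from day 0 to day 6, which were -0.61 and -0.68 with the lower threshold. *Igf1* (chromosome 10, 87858265 to 87937042, plus strand), the ligand, had 45, 194, 24 and 54 UMIs with log2 ratios to the reference of 6.32 to 9.93. It fell from day 1 to day 3 (-1.65, and -1.30 with the lower threshold). On day 6 a single cell held 36 of the 54 UMIs, and the ratio of 1.20 from day 3 to day 6 was -0.16 without it.

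Of the imprinted genes that act on growth, 4 of 8 compared fell from day 1 to day 3 (*Dlk1*, *H19*, *Mest* and *Grb10*) and 1 rose (*Ndn*), with a median log2 ratio of -0.94, and 2 of 8 had risen from day 0 to day 1 (*H19* and *Meg3*). *Dlk1* (chromosome 12, 109452823 to 109463336, plus strand), a transmembrane protein related to Notch ligands, had 47, 167, 9 and 15 UMIs, or 4.59, 7.59, 1.04 and 1.79 per 10,000. It fell from day 1 to day 3 by 2.80 on the log2 scale (interval -4.03 to -1.91) and by at least 2.00 in every setting where it was compared. In the reference *Dlk1* went the other way, from 0.190 on day 1 to 1.06 on day 3 (log2 ratio 2.48). *Mest* had 34, 87, 11 and 11 UMIs (-1.59 from day 1 to day 3), and *Grb10*, an adaptor that dampens insulin and IGF receptor signals, had 19, 76, 12 and 12 (-1.27). With the lower threshold these were -1.17 and -0.66. *H19* (chromosome 7, 142575529 to 142578143, minus strand), a non-coding RNA, had 9, 111, 10 and 18 UMIs, rose from day 0 to day 1 (2.45) and fell to day 3 (-2.07), and with the lower threshold these were 1.21 and -0.94, or 1.65 and -1.21 with cells holding *Epcam* left out. *Ndn* (necdin) had a ratio of 1.06 from day 1 to day 3, and 0.49 with the lower threshold. The ratio of *Meg3* from day 0 to day 1 was 1.05, which was 0.45 with the lower threshold and 0.82 without the top cell.

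Matrix genes moved separately. *Dcn*, which encodes the proteoglycan decorin, had 175, 277, 150 and 56 UMIs, or 17.1, 12.6, 17.3 and 6.67 per 10,000, with cell medians of 14, 5, 5 and 0.5. It fell from day 3 to day 6 (log2 ratio -1.37, but -0.89 without members holding *Epcam* and 0.55 at a collagen threshold of 40), while the reference, which also held the transcript in 55.5% of cells, stood at 2.59 and 4.38 on those days. *Fbln1* (fibulin) had 50, 138, 30 and 13 UMIs, a ratio of -1.62 from day 0 to day 6 that was -0.40 with the lower threshold. *Sparc*, a collagen-binding protein, had 125, 243, 243 and 171 UMIs and rose from day 1 to day 3 (1.34, and 0.92 without the top cell). The basement membrane gene *Col4a1* had 16, 96, 35 and 60 UMIs, with a ratio of 1.45 from day 0 to day 1 that was 0.52 with the lower threshold. Over the whole course its ratio was 2.16 in members, 1.04 with the lower threshold and 1.88 in the reference. From day 0 to day 1, 3 of 11 collagen genes rose, namely *Col12a1*, *Col4a1* and *Col4a2* (median 0.62), each under 2-fold with the lower threshold (0.41, 0.52 and 0.56), and from day 1 to day 3, 2 of 11 rose, *Sparc* and *Col14a1* (1.19, and 0.93 with the lower threshold). *Mmp14*, a membrane collagenase, had 18, 79, 24 and 36 UMIs and a ratio of 1.27 from day 0 to day 6, and 0.75 with the lower threshold.

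Of 5 mesenchymal transcription factor genes compared from day 0 to day 6, 2 fell and 0 rose. The median log2 ratio of the 5 was -0.10, near that of all genes (-0.07). The summed level of the list had a log2 ratio of -0.31 in members and -0.59 in the reference. *Meis2* had 100, 147, 43 and 31 UMIs, a log2 ratio of -1.39 from day 0 to day 6 that was -0.12 with the lower threshold, and *Isl1* had 50, 69, 20 and 18 (-1.16, -1.22 with the lower threshold, and -0.87 there without cells holding *Epcam*). From day 0 to day 1, 1 of 9 factors compared rose (*Sox4*, 1.13) and 2 fell (*Tcf21*, -1.27, and *Nr2f1*, -1.03), where with the lower threshold *Tcf21* stood at -0.56 and *Nr2f1* at 0.06. *Sulf1*, which trims sulfate groups from heparan sulfate, had 38, 57, 4 and 3 UMIs and fell from day 1 to day 3 (-2.33, -1.23 with the lower threshold, and -0.93 there without cells holding *Epcam*).

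Stress and metabolic genes also moved, some of them in the reference too. *Mt1*, a metallothionein, had 3, 69, 35 and 43 UMIs and a log2 ratio of 3.21 (1.81 to 5.73) from day 0 to day 1, 1.71 with the lower threshold, and 3.47 there without cells holding *Epcam*. The heat shock gene *Hspa1a* had 9, 72, 99 and 8 UMIs, and its ratio of 1.83 from day 0 to day 1 was 0.075 with the lower threshold and 0.96 without members holding *Epcam*. It rose from day 1 to day 3 (1.80, and 1.19 without the top cell) and fell to day 6 (-3.50), where the reference had -0.73, -0.78 and -2.32 over the 3 steps. *Socs3*, a feedback inhibitor of cytokine signals, had 44, 127, 94 and 19 UMIs and fell from day 3 to day 6 (-2.23), and *Errfi1*, an inhibitor of the EGF receptor, had 10, 43, 10 and 46 and rose (2.20, and 1.54 without the top cell). Of 7 hypoxia and glycolysis genes compared, 6 rose from day 0 to day 6 (median log2 ratio 1.31, and 0.65 with the top cell of each gene left out), among them *Pgk1* (2.21, 1.38 without the top cell, reference 1.53) and *Ldha* (1.41, 0.80 without the top cell, reference 0.43). With the lower threshold *Ldha*, *Aldoa* and *Tpi1* came under 2-fold (0.90, 0.97 and 0.75), and *Pgk1*, *Eno1* and *Higd1a* stood at 1.26, 1.27 and 1.03. The summed level of that list had a log2 ratio of 1.32 in members and 0.85 in the reference. *Ftl1-ps1* (chromosome 13, 74399694 to 74407346, plus strand), a pseudogene of the ferritin light chain whose reads may come from that gene, had 0, 151, 1 and 10 UMIs, at least 23.4-fold higher on day 1 than on day 0. The reference did the same, at 0.190, 4.94, 0.0866 and 0.965 per 10,000.

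Cell cycle genes were carried by few members. *Top2a*, a marker of S and G2 phase, had 41, 40, 12 and 12 UMIs in 2, 3, 2 and 4 cells, and at least 3 of 8 mitotic genes were seen in 2, 3, 1 and 3 members. The histone gene *Hist1h1b* had 131, 78, 29 and 8 UMIs, and 2 cells of day 0 held 65 each. With so few cells, a change in the share of cycling cells was not detectable. Among members of 1 day, after thinning to 2000 UMIs, the variance of a gene divided by its mean was highest for *Tmsb4x* on day 0 (11.7), *Malat1* on day 1 (25.2) and *Acta2* on days 3 and 6 (28.3 and 18.4), with *Tpm1* (20.7), *Tagln* (13.5) and *Myl9* (11.9) next on day 3. The median over all genes was 0.9, 0.986, 0.9 and 1 on the 4 days.

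The adult runs held cells that met the same collagen and *Pax2* rule under the filters of the adult data (more than 750 genes, under 10% mitochondrial UMIs): 45 of 1904 in run 1 (2.36%), 34 of 4406 in run 2 (0.772%) and 12 of 2248 in run 3 (0.534%). Their median UMI counts were 7200, 6962 and 8407.5, close to that of the members, and *Epcam* was seen in 2, 3 and 1 of them. Age, culture, sex, sort and library all differ between these and the explant members and cannot be told apart. Ratios are given as the mean over the 3 runs of the log2 ratio of explant to adult. Of 3999 genes compared, 378 were at least 2-fold higher in the explant members than in every run (9.45%) and 395 were at least 2-fold lower (9.88%), and the median of all genes was 0.29.

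Of 9 imprinted genes compared, 8 were higher in explant members than in every run (median log2 ratio 3.79), and of 9 genes of the S and G2/M phases 7 were (median 2.97). Among those 7, *Top2a* was carried by few members, as given above. The adult counts were small, with 18, 0 and 0 UMIs of *Cenpf* and 4, 1 and 0 of *Mcm6* in the runs. *Dlk1* stood at 4.99 per 10,000 in explant members and had 0 UMIs in all 3 runs, at least 123-fold higher, and *H19* stood at 3.04 against 0, 0.038 and 0. *Cdkn1c*, an inhibitor of the cell cycle, stood at 14.9 against 0.914, 2.64 and 0.462. Of 12 secreted antagonist genes 3 were higher (*Sfrp2*, *Nog*, *Igfbp2*) and 2 lower (*Sfrp1*, *Igfbp7*), with a median of -0.75. *Igfbp2* stood at 13.4 against 0.161, 0.153 and 0 (6.91), *Mdk* at 14.4 against 0.967, 0.726 and 0.369 (4.42, 3.88 to 5.12 over the runs), and *Sox4* at 8.16 against 0.914, 0.993 and 0.646 (3.24). *Ptn*, *Mdk*, *Rspo3* and *Cxcl12* were the 4 of 17 growth factor genes that were higher, where *Wnt2* was lower (median 0.88). Of 6 genes of the Hedgehog list 3 were higher (*Ptch1*, *Smo* and *Foxf1*) and *Gas1* was lower. Of 8 retinoid genes 2 were higher (*Aldh1a2* and *Crabp1*).

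Of 23 matricellular genes, 12 were lower in explant members than in every run and 2 were higher (*Fbn2*, *Mfap2*), with a median of -1.81. Collagen and collagen-processing genes differed less, with 6 of 26 lower, 1 higher (*Col26a1*) and a median of -0.12, and of 9 matrix protease and inhibitor genes 3 were lower. *Dcn* stood at 13.8 per 10,000 against 112, 133 and 177 in the runs (-3.32, -3.68 to -3.01), and the elastic fibre gene *Mfap5* at 0.600 against 15.9, 12.9 and 22.7. *Sparc* stood at 16.0 against 73.8, 54.5 and 75.8 (-2.07), and *Igfbp7* at 1.73 against 41.0, 25.4 and 39.3 (-4.31). All 9 inflammatory and wound response genes compared were lower (median -4.35, with genes at 0 UMIs set to their bound as well): the complement gene *C3* (chromosome 17, 57203970 to 57228136, minus strand) had 0 UMIs in explant members and stood at 6.23, 5.50 and 8.03 in the runs, at least 111-fold higher in the adult cells, and the chemokine gene *Ccl7* was at least 62.9-fold higher there.

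*Col1a2* stood within 2-fold of every adult run, but explant and adult cells were chosen by the same collagen threshold, so its nearness is not independent of the choice. The level of *Col1a2* was 13.7 per 10,000 against 19.5, 20.7 and 21.1 (-0.57). *Acta2*, summed over all members, was at 9.91 against 15.0, 10.4 and 0.092. The adult runs thus differed among themselves more than this sum differed from runs 1 and 2, but the days pooled in it differed widely. Of 10 smooth muscle contractile genes compared, 3 were higher in explant members than in every run (*Myh11*, *Actg2* and *Mylk*) and 0 were lower, with a median of 1.51.

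**Figure D5:**
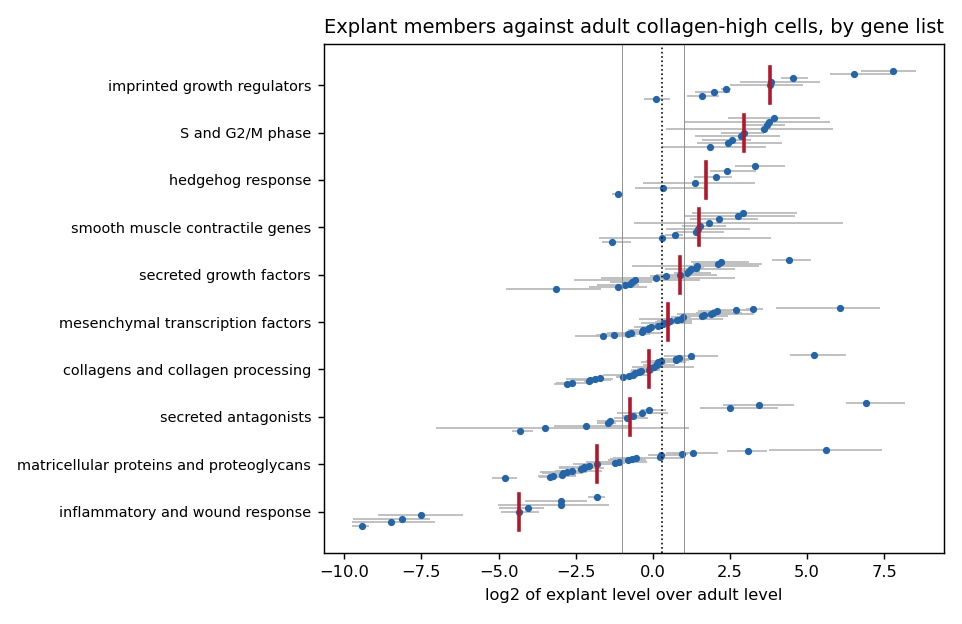
Log2 ratio of explant members to adult collagen-high cells (horizontal axis) for each compared gene of each list (vertical axis): dots are the mean over the 3 adult runs, grey lines the range over runs, red bars the list medians, the dotted line the median of all genes (0.29) and thin lines 2-fold in either direction. Imprinted and cell cycle genes lie to the right, with medians of 3.79 and 2.97, and inflammatory and matricellular genes to the left, with -4.35 and -1.81.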

How the data were processed

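The deposited files were UMI count tables of 31053 genes by cell, 1 per library, which the authors made with Cell Ranger 3.1.0 on mm10 (GRCm38), and MULTI-seq oligo counts per barcode for the explant library. The counts were used as deposited, with Python 3.11.15, numpy 2.4.6, pandas 2.3.3 and scipy 1.17.1. Cells were filtered and chosen as stated, and UMIs were summed over the members of each day or run. Levels are UMIs per 10,000 of that sum with exact 95% Poisson intervals, and log2 ratios added 0.5 UMI to each sum. Against the reference, a gene was called higher only with at least 3 UMIs in members. For lower calls, member sums under 3 UMIs were set to 3. A gene with 0 UMIs in a sum was set to 3 to give a bound. No test was run, since each day is 1 pool and cells are not replicates. The summing was tested on simulated counts. Gene positions come from GENCODE M21, where 439 of 439 listed genes matched. Genes named were those of the lists and, for each pair of days, the 8 highest and 8 lowest ratios with at least 50 UMIs over both sums, 2 per 10,000 in the higher sum and Poisson intervals that did not overlap, plus the 10 most variable genes of each day; genes named for other reasons were chosen after their values were seen. Members and lists were chosen with earlier results of these data known. Alternatives varied the collagen threshold, cells with *Epcam*, the UMI minimum, the UMIs added and the adult run left out.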

Additional observations from a re-analysis of the deposited data

How the results depend on the processing

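No paired analysis was possible because no result comes from a test and each day is 1 pool. Thresholds of 10 and 40 collagen UMIs per 10,000 gave 139 and 18 members, with shares on days 0, 1, 3 and 6 of 3.11%, 5.95%, 2.10% and 0.881% at 10 and 0.334%, 0.806%, 0.456% and 0.0419% at 40. The number of genes past 2-fold was 76 from day 0 to day 1, 64 from day 1 to day 3, 37 from day 3 to day 6 and 73 from day 0 to day 6. At 40 collagen UMIs these became 25, 26, 67 and 43, with at least 200 UMIs 11, 7, 3 and 5, with no UMI minimum 4530, 3821, 4970 and 5348, and without the top cell of each gene 40, 42, 20 and 46. The lower threshold gave 67 from day 3 to day 6 and 139 from day 0 to day 6. From day 0 to day 1 the count was 47 without members holding *Epcam* and 37 without the 10% of members with most UMIs, and from day 1 to day 3 it was 34 with 5 UMIs added. That last setting also moved the share of higher calls from 59.2% to 39.6% for day 0 to day 1 and from 34.4% to 67.6% for day 1 to day 3. Without the floor of 3 UMIs, 615 genes were higher and 272 lower than the reference on all days. Leaving out 1 adult run gave 432 to 480 genes higher and 292 to 445 lower in explant members. With day 6 members alone 197 of 2606 genes compared were higher, and 99 of these were among the 378 higher with all members. In that setting 364 were lower, and 272 of these were among the 395 lower with all members. With the lower threshold 610 were higher, and 306 of these were among the 378. Directions turned without the top cell for *Ube2c* (day 0 to day 1, 1.24), *Top2a* (day 0 to day 1, 0.27), *Mylk* (day 1 to day 3, -0.37), *Igf1* (day 3 to day 6, -0.16) and *Eno1* (day 3 to day 6, -0.23). They turned with the lower threshold for *Nr2f1* (day 0 to day 1, 0.064), *Gadd45g* and *Klf4* (day 1 to day 3, 1.24 and 0.59), *Rgs2* (day 3 to day 6, -0.12) and *Top2a* (day 0 to day 6, 0.25), at 40 for *Klf2* (day 0 to day 1, -0.42), *Dcn* (day 3 to day 6, 0.55, and day 0 to day 6, 0.82) and the contractile list (day 1 to day 3, -0.40), and without members holding *Epcam* for *Top2a* (day 0 to day 1, 0.055). With the lower threshold and no cells holding *Epcam* they turned for *H2afx* and *Top2a* (day 0 to day 1, 0.040 and 0.26), *Gadd45g* and *Klf4* (day 1 to day 3, 1.34 and 0.61), *Ndn* (day 3 to day 6, 0.086) and *Top2a* and *Dlk1* (day 0 to day 6, 1.10 and 0.12). Of 1147 repeats of gene ratios, 882 kept direction and call within the counting error. A further 193 came under 2-fold, 51 left the counting interval either way while staying past 2-fold, and 21 turned. Repeats that changed only the UMI minimum could not alter a gene ratio, so the 882 overstate how far the ratios held. Of 453 repeats of list medians 393 moved by at most 0.5. The lower threshold for ratios (with or without cells holding *Epcam*), the top cell and the floor were chosen after seeing the data. The cause of these differences was not tested.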

Other observations

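Transcripts of *Xist* and of Y-linked genes were both found among members. Among the 11, 31, 11 and 10 members of days 0, 1, 3 and 6, *Xist* without a Y-linked transcript was seen in 4, 14, 5 and 6, a Y-linked transcript without *Xist* in 2, 13, 3 and 4, and both in 0, 1, 1 and 0. The adult collagen-high cells had 0 *Xist* UMIs in all 3 runs. In the reference of day 0, 191 of 854 cells held both kinds of transcript, so a single UMI does not give the sex of a cell.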
